A study of Mus musculus with 6 samples.

Results

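Members of the transcriptional programme of the primed epiblast were followed in mouse embryonic stem cells over a day of Snail induction. The set holds 7 genes, Fgf5, Pou3f1, Otx2, Zic2, Zic5, Sall2 and Cer1, named by symbol, and it takes in every array probe annotated to them, 9 probes in all, out of 19057 genes with a probe of a single symbol. Fgf5, Pou3f1, Otx2, Zic5 and Sall2 had 1 probe each, and Zic2 and Cer1 had 2 each. The E14 cells expressed Snail-ER, in which Snail (Snai1) is joined to an estrogen receptor domain so that 4-hydroxytamoxifen (4-OHT) moves it into the nucleus. They were grown in serum and LIF, which keeps such cells undifferentiated, and RNA was hybridised to Illumina bead arrays at 0, 2, 4, 8, 12 and 24 h of 4-OHT. The 0 h cells carried the fusion as well and had no induction. There was 1 array per time, and the promoter of the fusion, the number of clones and whether the arrays came from separate cultures are not given in the sources used here. On the mouse genome Fgf5 lies on chromosome 5, Pou3f1 and Cer1 on chromosome 4, and Otx2, Zic2, Zic5 and Sall2 on chromosome 14. No array of cells without the fusion, or of cells kept for the same hours without 4-OHT, was analysed here, so time in culture, 4-OHT and the fusion cannot be told apart. These are bulk samples, in which more cells expressing a gene and more RNA per cell cannot be told apart.

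Mouse embryonic stem cells resemble the naive epiblast of the blastocyst. As the embryo implants, the epiblast takes on a primed state, in which naive factors are lost and another set of genes takes over. Otx2, a homeodomain factor, and Pou3f1, a POU factor also called Oct6, act early in this transition. Otx2 directs OCT4 to new enhancers. Zic2 and Zic5 encode zinc finger factors of the ZIC family, Sall2 a zinc finger factor of the spalt family, and Fgf5 a secreted fibroblast growth factor that is a standard marker of the epiblast after implantation. Cer1 encodes Cerberus, a secreted antagonist of Nodal, BMP and Wnt ligands, best known from the anterior visceral endoderm. Snail is a zinc finger repressor of the epithelial state that binds the E-box CAGGTG.

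Of the 7 members, 4 (Pou3f1, Sall2, Otx2 and Zic2) were detected on all 6 arrays, Fgf5 was detected on the last 4, and Zic5 and Cer1 were not detected on any array. Pou3f1, Sall2, Fgf5 and Otx2 rose over the series, and Zic2 was higher at 24 h than at 0 h without passing the test. Fgf5 entered the test only through the arrays from 4 h on, where it was higher, so its call alone supports no direction. It was detected at both 4 and 8 h and was 3.44-fold higher at 8 h. Pou3f1, Sall2 and Fgf5 first lay at least 2-fold from the 0 h array at 8 h and stayed past it. Otx2 and the brighter Zic2 probe did not reach 2-fold at any time, and the dimmer Zic2 probe, undetected at 0 h, had only a bound under 2-fold. Values below are normalized intensity, the authors' linear, background-subtracted scale. A probe counts as detected where it reached the lowest signal of a probe with a detection p-value under 0.01 on the same array. That limit was 60.6, 71.1, 31.4, 62.0, 18.5 and 18.9 in order of time, so the 4, 12 and 24 h arrays measured dim genes better than the 0, 2 and 8 h arrays. Folds are on the scale of intensity plus 16 and understate the change of dim genes. The trend test was a limma slope of log2 intensity on log2(hours + 1) over the 6 arrays, with Benjamini-Hochberg adjustment over all 9432 genes detected on at least 1 array. With no replicates, its error comes only from how far each array lies off the line. That distance may be technical, and it also holds any step or bend in the course. An SE here is thus not an error between repeats.

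The regions around the start sites of members are shown because CAGGTG, or CACCTG on the other strand, is the motif that Snail is known to bind. RefSeq promoters of GRCm38.p6, from 250 bases before to 50 after a start, were held for 5 of the 7 members, Fgf5, Otx2, Zic5, Sall2 and Cer1, with 9 starts in all. The motif lay in 2 of these 9, against 20.2% of the 32851 promoters of the same length. Below, Fgf5 rose and has no match, Sall2 rose and has 1, and Cer1 was not detected and has 2. Capitals mark the E-box letters.
Fgf5, chr5:98253934-98254233, plus strand: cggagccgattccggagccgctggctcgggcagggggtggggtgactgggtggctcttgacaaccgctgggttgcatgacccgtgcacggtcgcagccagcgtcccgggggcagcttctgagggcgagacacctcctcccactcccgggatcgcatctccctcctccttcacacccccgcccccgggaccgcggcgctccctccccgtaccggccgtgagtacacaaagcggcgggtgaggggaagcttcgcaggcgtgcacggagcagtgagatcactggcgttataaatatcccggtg
Sall2, chr14:52316274-52316573, minus strand: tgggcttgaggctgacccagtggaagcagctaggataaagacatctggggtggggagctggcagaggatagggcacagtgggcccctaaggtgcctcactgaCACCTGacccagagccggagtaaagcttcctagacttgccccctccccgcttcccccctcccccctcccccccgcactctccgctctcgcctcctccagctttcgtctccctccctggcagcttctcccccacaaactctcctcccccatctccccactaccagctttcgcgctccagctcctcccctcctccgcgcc
Cer1, chr4:82885102-82885401, minus strand: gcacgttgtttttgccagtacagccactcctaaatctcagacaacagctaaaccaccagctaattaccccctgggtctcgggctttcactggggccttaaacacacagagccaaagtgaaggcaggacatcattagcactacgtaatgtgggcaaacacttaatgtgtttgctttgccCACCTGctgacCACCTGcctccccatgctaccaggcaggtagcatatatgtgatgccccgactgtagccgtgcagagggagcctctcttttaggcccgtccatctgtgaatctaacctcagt
The Sall2 match began 148 bases before the start, and the Cer1 matches began 72 and 61 bases before it. A second Sall2 start, the 4 Otx2 starts and the Zic5 start held none. An octamer, the motif of POU factors, searched as ATGCAAAT or ATTTGCAT, lay in none of the 9 and in 1.74% of all promoters. TAATCC or GGATTA, the core motif of OTX factors, lay in 1 Otx2 start and in 7.06% of all promoters. None of these matches overlapped another. A match is a run of letters and not a measured binding site.

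Pou3f1 (probe ILMN_1233172) was among the 3 members with the largest fitted changes, with Fgf5 and Sall2, whose order changed with the offset added before log2 and without the 0 h array. Its normalized intensity was 140.0, 278 and 233 on the 0, 2 and 4 h arrays, and 1033, 1008 and 959 on the 8, 12 and 24 h arrays. The 3 values from 8 h on lay close together, far above the 3 earlier ones, and the 2 h value was already above the 0 h value. By 8 h it was 6.73 times its 0 h value, and at 24 h 6.25 times. The fitted change over the series was 3.12 ± 0.48 (log2, SE, 6 arrays; limma adjusted p = 0.0048), which ranked 7 among the 9432 genes. A fitted change is the slope over the whole span of log2(hours + 1). The observed log2 difference of Pou3f1 between 0 and 24 h was smaller, at 2.64. That of Sall2 (2.15) and of Otx2 (0.66) also lay below the fitted change, and that of the brighter Zic2 probe (0.78) did not. At 2 h Pou3f1 was 1.88-fold higher than at 0 h, a difference that 9 of 6674 genes, Pou3f1 included, reached or passed. At 4 h it was 1.60-fold higher. With 1.5-fold in place of 2-fold, Pou3f1 left its 0 h level at 2 h and stayed past it, and no other member did so before 8 h. At least 1.5-fold higher were 0.959% of genes at 2 h and 0.441% at 4 h, and at least 2-fold higher were 0.03% and 0%. With 1 array at 2 h, that early difference has no error.

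Sall2 (ILMN_1240935) followed a like course with a smaller early difference. It stood at 192, 233 and 249 on the first 3 arrays in order of time, then at 886, 882 and 909.5 on the last 3. The groups do not overlap. The late values spanned 0.04 on the log2 scale, the narrowest late range of the 5 detected members. Against 0 h, Sall2 was 1.27-fold higher at 4 h, 4.34-fold at 8 h and 4.45-fold at 24 h. Its fitted change was 2.66 ± 0.44 (log2, SE; limma adjusted p = 0.0064), rank 16 of 9432.

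Fgf5 (ILMN_2642743), the ligand of the set, began below detection. Its intensity was 23.9 and 32.5 on the 0 and 2 h arrays, both undetected, then 42.5 on the 4 h array, where it was first detected, and 185, 204 and 212 on the last 3. The gene entered the filter through the arrays from 4 h on, all higher than its undetected 0 and 2 h values. Its trend call alone therefore supports no direction. Because the 4 h array has a lower limit than the 0 and 2 h arrays, first detection at 4 h does not date a rise. Set against the detection limit of the 0 h array, it was at least 2.63-fold higher by 8 h, 2.87-fold by 12 h and 2.98-fold by 24 h. Against the 4 h array, on which Fgf5 was measured, it was 3.44-fold higher by 8 h and 3.90-fold by 24 h. The fitted change was 3.07 ± 0.47 (log2, SE; limma adjusted p = 0.0048), rank 9 of 9432. Its size depended on the offset, which weighs on the undetected early values: it was 3.59 with an offset of 4 and 2.03 with one of 64. In the non-normalized table the same probe gave 132.8, 134.5 and 136.1 intensity units on the 3 early arrays and 316, 287 and 292 on the 3 late ones. The Fgf5 step thus stands before normalization too. Probes of Pou3f1, Otx2, Zic2, Zic5 and Sall2 had no non-normalized value or detection p-value here. Their courses could not be checked this way, and their detection rests on the limits taken from other probes.

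Otx2 (ILMN_2691752) had the smallest fitted change of the 4 members that rose. Its probe gave 2309, 2547 and 2320.0 on the early arrays and 3972, 4055 and 3649.9 on the late ones. The first 3 values lie close together and all 3 late values lie above them. Against 0 h, the value was 1.00-fold at 4 h, 1.72-fold higher at 8 h, 1.75-fold at 12 h and 1.58-fold at 24 h. The fitted change was 0.89 ± 0.23 (log2, SE; limma adjusted p = 0.030), rank 675 of 9432. This call rested on single arrays: with the 0, 2, 12 or 24 h array left out, the limma adjusted p was 0.095, 0.070, 0.091 or 0.059. At 1.5-fold Otx2 left its 0 h level at 8 h and stayed past it, a size that 6.47% of genes reached upwards at 8 h, 5.89% at 12 h and 5.55% at 24 h.

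Zic2 gave an uneven course. Its brighter probe (ILMN_2470518) read 140.5, 216.1 and 126 on the early arrays and 267, 216.0 and 252 on the late ones. The 2 h value was as high as the 12 h value and the 4 h value was the lowest of all, so the early and the late arrays overlap. Against 0 h it was 1.81-fold higher at 8 h, 1.48-fold at 12 h and 1.71-fold at 24 h, so at 1.5-fold it left its 0 h level at 8 h but kept past it only from 24 h, and its fitted change of 0.77 ± 0.31 did not pass (log2, SE; limma adjusted p = 0.13). Without the 0 h array that change was 0.48 (limma adjusted p = 0.41). The dimmer Zic2 probe was detected at 8 h, at 91.3, and at 12 h, at 31.3, and undetected at 15.6 at 24 h. Its fitted change was 0.11 ± 0.57 (limma adjusted p = 0.92), so neither Zic2 probe passed. Zic5, which neighbours Zic2 on chromosome 14, had values from -7.41 to 4.40, all below the limits. The brighter Cer1 probe ran from -6.14 at 24 h to 20.8 at 8 h and the dimmer from -0.26 to 5.99, all undetected. Nothing can be said of the time at which Zic5 and Cer1 leave their 0 h level.

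**Figure D1:**
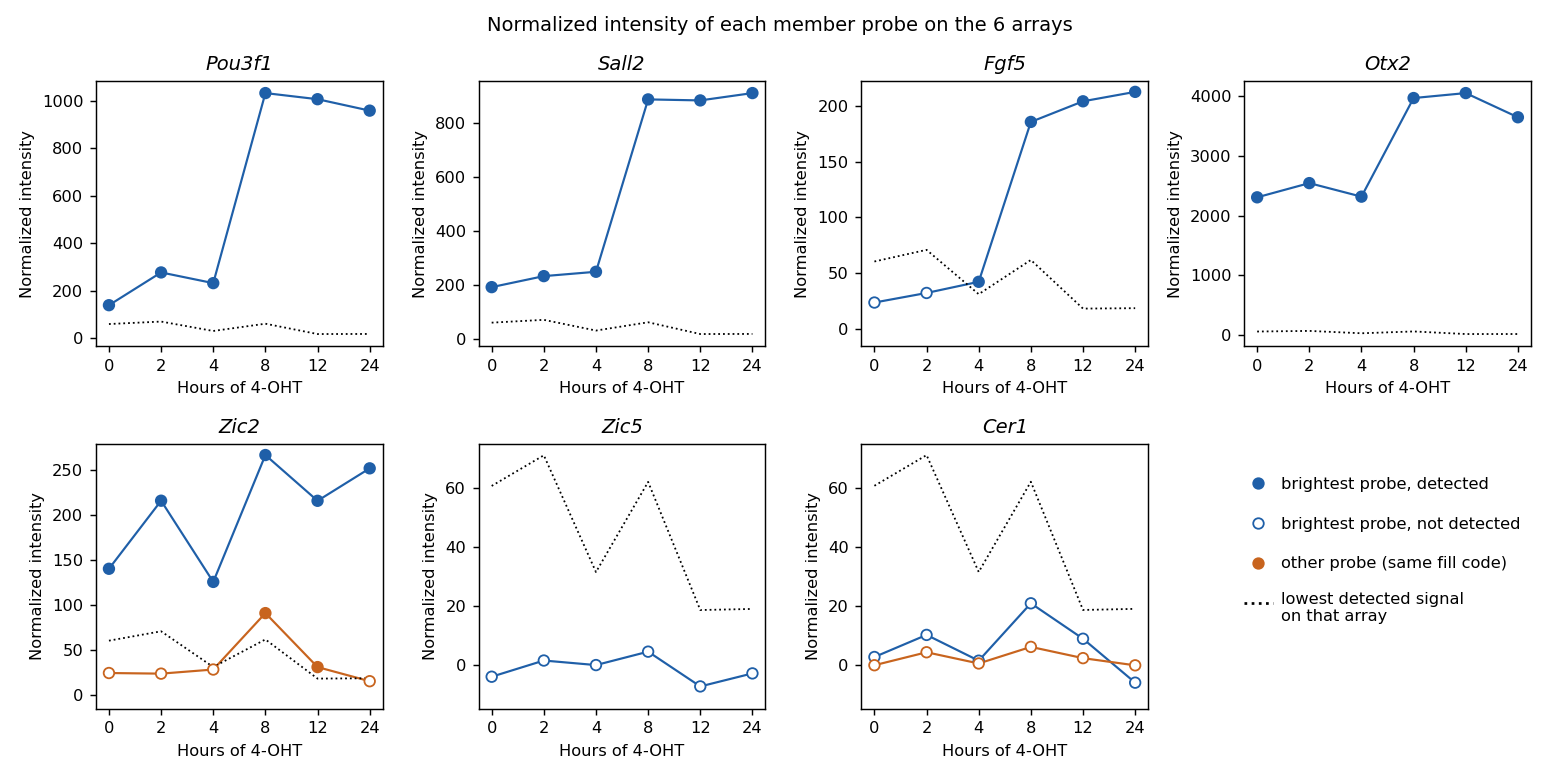
Normalized intensity (y axis, linear, each panel on its own scale) of the 9 member probes at each of the 6 times (x axis, hours of 4-OHT, evenly spaced), 1 array per time. Filled points are detected, open points are not, and the dotted line is the lowest detected signal of each array. Pou3f1, Sall2, Fgf5 and Otx2 step up between 4 and 8 h, Zic2 rises and falls, and Zic5 and Cer1 stay under the line.

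The step between 4 and 8 h was set against that of all genes. From the 4 h to the 8 h array Pou3f1 was 4.22-fold higher, Fgf5 3.44-fold, Sall2 3.41-fold, the brighter Zic2 probe 1.99-fold and Otx2 1.71-fold. The dimmer Zic2 probe, undetected at 4 h, was at least 2.26-fold higher. Of 7947 genes detected on at least 1 of these arrays, 5 had a step at least as high as that of Pou3f1, 11 as that of Fgf5, 12 as that of Sall2, 97 as that of the brighter Zic2 probe and 205 as that of Otx2, each count including the gene itself. At least 2-fold higher than at 4 h were 96 genes, or 1.21%. The 8 h array has a detection limit of 62.0, like the 0 h array's 60.6, and the 3 late values of Pou3f1, Sall2 and Fgf5 spanned 0.11, 0.04 and 0.18 on the log2 scale, with the 8 h value of Fgf5 the lowest of its 3. On the log2 scale the difference from 0 h at 8 h was 104% of that at 24 h for Pou3f1, 98.3% for Sall2 and 118% for Otx2. At 4 h those shares had been 25.5%, 16.2% and 1.05%. No share is given for Fgf5, which was undetected at 0 h, and its 8 h value of 185 compares with 212 at 24 h.

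**Figure D2:**
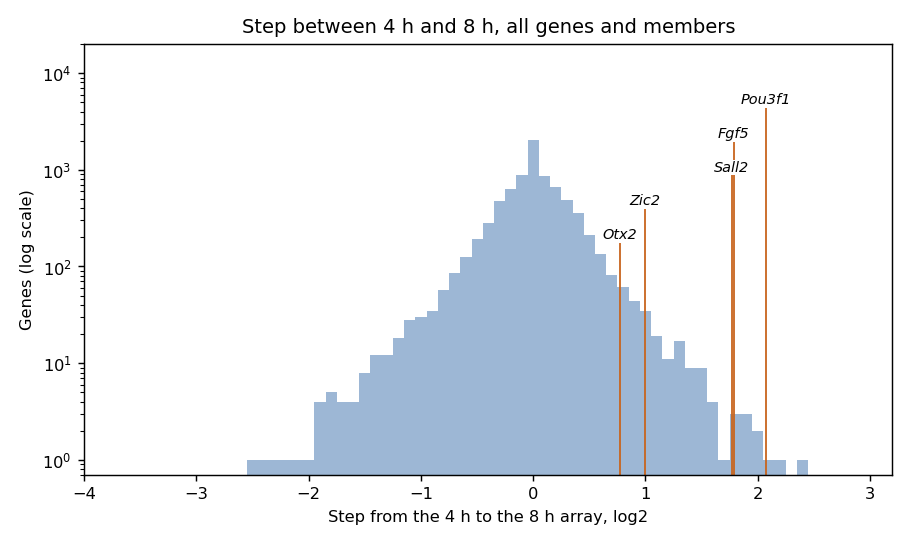
Number of genes (y axis, log scale) by the difference between the 8 h and the 4 h array (x axis, log2 of intensity plus 16, bounded at detection), for 7947 genes detected on at least 1 of these arrays. Vertical lines mark the 5 detected members. Pou3f1, Fgf5 and Sall2 lie in the far right tail at 2.08, 1.78 and 1.77, and Zic2 and Otx2 at 0.99 and 0.77.

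The 2-fold rule can be read against all genes: by 8 h, 3 members had gone up at least that far, and so had 80 of 6940 genes, or 1.15%. At 12 and 24 h the same 3 were past it, beside 1.25% and 1.29% of genes. By the trend test 4 members rose and none fell, where 6.24% of all genes rose and 6.18% fell. All 4 calls were lost against untransformed hours and when undetected genes were tested too (limma adjusted p from 0.071 to 0.14 and from 0.16 to 0.24), with every fitted change still above 0. The median fitted change of the 5 members tested was 2.66, against 0.06 over all genes. In 4 of the 5, each value from 8 h on lay above each value up to 4 h, which held for 21.6% of all genes. The exception was Zic2. These numbers describe genes picked with earlier results of these arrays known. Fgf5 entered only through the arrays from 4 h on, where it was higher than before, so its call alone supports no direction.

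**Figure D3:**
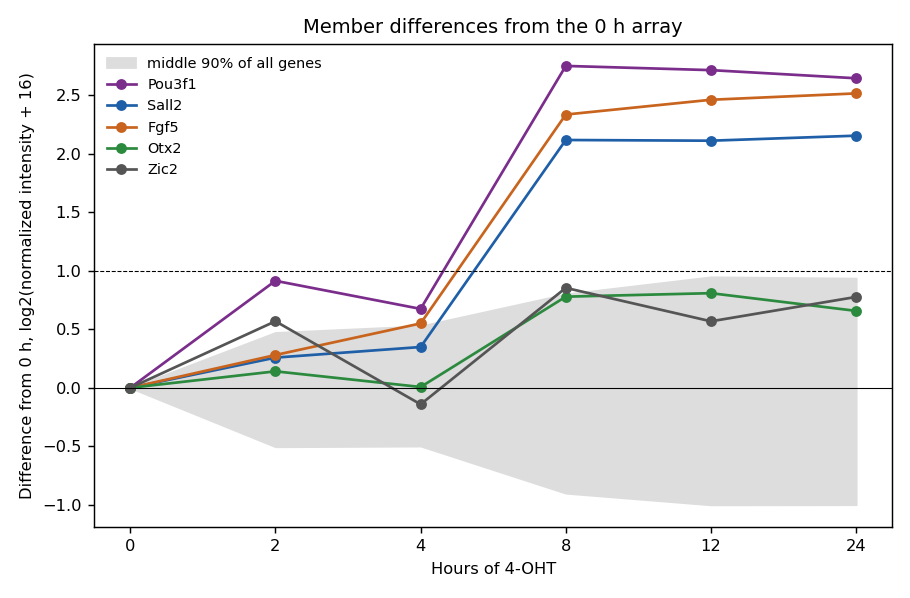
Difference from the 0 h array (y axis, log2 of intensity plus 16, no bound at detection) at each time (x axis, hours, evenly spaced) for the brightest probe of the 5 detected members, 1 array per time. The grey band holds the middle 90% of all 9432 genes and the dashed line marks 2-fold. Pou3f1 lies above the band from 2 h on, and Fgf5, undetected at 0 h, lies just above it at 4 h. Sall2 and Fgf5 lie far above it from 8 h on. Zic2 lies above it at 2 and 8 h only, and Otx2 lies within it at every time.

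The courses of Pou3f1, Sall2, Fgf5 and Otx2 were alike. Their pairwise Pearson correlations of log2 intensity over the 6 arrays ran from 0.97 to 0.998, and those with Zic2 from 0.76 to 0.84. These are descriptions of 6 shared arrays, and values this high were common: 122 of 895 other genes that spanned at least 1 log2 unit and were detected on at least 3 arrays had a correlation over 0.95 with Fgf5. By that measure the genes most like Fgf5 were Spata45 (0.999), Sall2 (0.998) and Gli3 (0.998), a zinc finger effector of Hedgehog signalling. Those most like Sall2 were Fgf5 (0.998), the membrane protein gene Igdcc4 (0.998) and Gpsm1 (0.997). Those most like Pou3f1 were Mxd4 (0.996), a partner of MAX, Naprt (0.994), an enzyme of NAD synthesis, and Dnmt3b (0.994). Otx2 was nearest to Zmynd8, Chst1 and Sema6a (0.997, 0.997 and 0.995). Zic2 was nearest to Tnfsf11 (0.993), Itga3 (0.93) and Phlda1 (0.92), and only Tnfsf11 passed 0.95. Tnfsf11, Sema6a and Chst1 were each detected on 3 arrays, and Fgf5, Spata45 and Itga3 on 4. Correlations with any of these genes thus rest partly on undetected values.

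Other genes of the primed and formative epiblast moved in both directions. Of 18 listed, 12 were measured, and 6 rose, 1 fell and 5 did not pass, beside 6.24% and 6.18% of all genes. With the 0, 2, 12 or 24 h array left out, 2, 3, 3 or 2 rose, and 2 fell without the 4 h array. Dnmt3b, a de novo DNA methyltransferase, had values of 6823, 8171, 8209, 16287, 16155 and 14853 in order of time. Like Pou3f1 it stepped up between 4 and 8 h, and its fitted change was 1.42 ± 0.25 (log2, SE; limma adjusted p = 0.0082). Sox11, a SoxC factor, was 3.38-fold higher at 24 h (limma adjusted p = 0.0031). Lef1, an effector of Wnt signalling, was undetected at 0 h and had risen at least 2.33-fold by 24 h. Grhl2 and Utf1 rose by 1.70-fold and 1.43-fold. Eomes is the last of the 6, but it entered the test only through the 12 and 24 h arrays, on which alone it was detected, so its call supports no direction and no fold is given. Tcf15, a helix-loop-helix factor of the early exit from the naive state, fell, from 857 at 0 h to 463 at 24 h (limma adjusted p = 0.0096). Pim2, Tead2, Cldn6, Nodal and Etv4 did not pass, and Dnmt3a, Sox3, Fgf8 and Foxa2 were not detected. The other listed genes were not analysed here.

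Close relatives of the members were set beside them. Of 17 listed, 6 were measured, and Fgf15 alone rose, beside 6.24% of all genes. Fgf15 was 2.14-fold higher at 24 h (fitted change 1.14 ± 0.27, log2, SE; limma adjusted p = 0.023). That call was lost without the 0, 2, 12 or 24 h array. The spalt genes Sall1, Sall3 and Sall4 had fitted changes of 0.02 ± 0.20, 0.16 ± 0.31 and 0.27 ± 0.16 and did not pass, beside the 2.66 ± 0.44 of Sall2. The difference between these genes was not tested. Fgf4, the main FGF of embryonic stem cells, ended 1.48-fold below its 0 h value and did not pass (limma adjusted p = 0.20), and Nbl1, a relative of Cer1, had a fitted change of -0.41 ± 0.32. Zic1, Zic4, Otx1, Pou3f3, Pou3f4, Dand5 and Grem1 were not detected, as was Fgf8.

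Among 15 receptors, ligands and partners of the members, 9 were measured, of which 3 rose and 2 fell, beside 6.24% and 6.18% of all genes. Fgfr2, an FGF receptor, was 2.94-fold higher at 24 h (fitted change 1.64 ± 0.20, log2, SE; limma adjusted p = 0.0031). Fgfr1, another FGF receptor, passed the test as well, but it was detected only at 12 and 24 h, at 48.7 and 39.5. It entered the test only through those late arrays, so its call supports no direction and no fold from 0 h is given. Bmp4, a ligand that Cerberus can bind, fell from 859.9 at 0 h to 166 at 24 h (-2.82 ± 0.42; limma adjusted p = 0.0044). Gli3 rose and Gli2 fell, both zinc finger factors related to the ZIC family, with 24 h values 2.27-fold higher and 3.05-fold lower. Pou5f1, which encodes OCT4, ended 1.41-fold above its 0 h value and did not pass (limma adjusted p = 0.10), nor did Nodal, Acvr2b and Tdgf1. Fgfr3, Fgfr4, Wnt3, Wnt8a, Foxd3 and Gli1 were not detected.

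Naive genes fell over the same series. Of 13 listed, 11 were measured and all 11 fell by the trend test, beside 6.18% of all genes. The 11 include Prdm14, whose call supports no direction. Without the 0 h array, 3 of the 11 fell. As for the other lists here, none passed against untransformed hours or when undetected genes were tested too. Klf2, a naive zinc finger factor, had values of 3718, 2880.2, 3037, 541, 518 and 691 in order of time, and Tcl1 of 738, 571, 510.4, 83.4, 80.4 and 119. Their drop between 4 and 8 h falls in the interval in which Pou3f1, Sall2 and Fgf5 stepped up. By 24 h Tcl1 was 5.58-fold and Klf2 5.28-fold lower (adjusted p by limma 0.011 and 0.012). Esrrb, Nanog, Zfp42, Tfcp2l1, Tbx3, Klf4, Klf5 and Nr5a2 fell too, by 2.00-fold for Klf5 to 5.25-fold for Tfcp2l1 at 24 h. Prdm14 passed the test as well, but it entered only through the 4 h array, on which alone it was detected. Its call therefore supports no direction and no fold is given.

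Neural genes were examined because Pou3f1, Otx2 and the ZIC factors also act in the neural plate. Of 10 listed, 4 were measured. Sox11 and Sox4 rose, beside 6.24% of all genes, and Nes and Zfp521 did not pass. Without the 0 h array, 1 of these rose. A dimmer Sox4 probe sloped the other way (-0.55 ± 0.43; limma adjusted p = 0.42). Sox1, Pax6, Pax3, Hes5, Six3 and Hesx1 were not detected on any array.

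**Figure D4:**
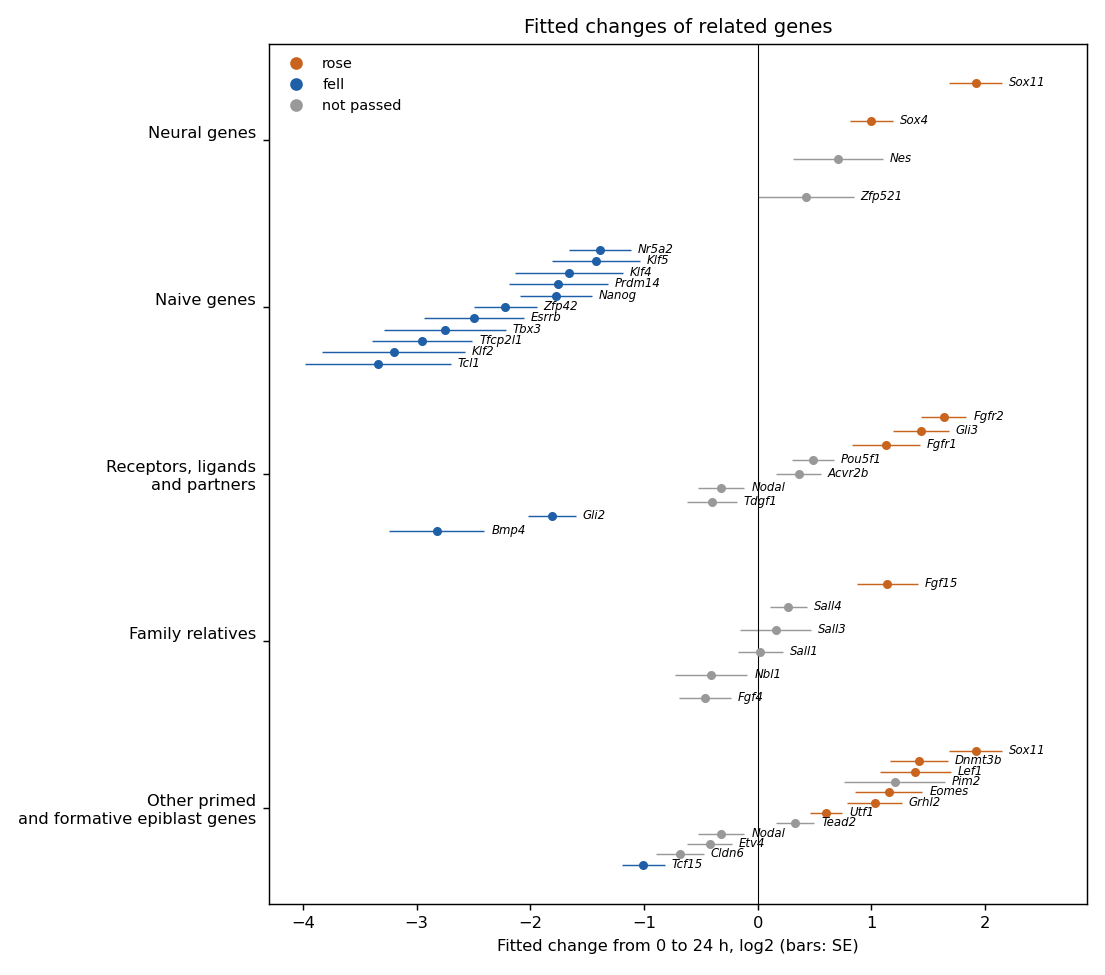
Fitted change from 0 to 24 h (x axis, log2, with SE as bars) for the measured genes of 5 lists related to the members (y axis), from the limma slope over 6 arrays. Orange genes rose, blue genes fell and grey genes did not pass. The calls of Eomes, Fgfr1 and Prdm14 support no direction. All 11 measured naive genes lie left of 0, and the other lists hold both directions or genes that did not pass.

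The stated cell type was checked against markers. All 8 embryonic stem cell markers were detected on all 6 arrays, and their summed intensity ran from 26054 to 41010, highest at 0 h. Nanog, Esrrb, Zfp42 and Klf4 fell, beside 6.18% of all genes, and Pou5f1, Sox2, Dppa5a and Tdgf1 did not pass. Of markers of other cells, Thy1 was the 1 of 6 feeder fibroblast genes detected, at 91.6 to 214, with Col1a1, Col1a2, Col3a1, Postn and Lum undetected. Of 6 endoderm markers Sox7 alone was detected on any array, with Gata6, Gata4, Sox17, Afp and Foxa2 undetected. Eomes and Gsc were the mesoderm markers detected, Mixl1 and Mesp1 were not, and none of 3 trophectoderm markers was. The summed intensity of the 2 mesoderm genes was 18.0 at 0 h, where neither was detected, and 81.6 at 24 h, where both were. Nes, the 1 of 4 neuroectoderm markers detected, ran from an undetected 11.3 at 2 h to 44.7 at 24 h. The detection limits were 60.6 and 71.1 at 0 and 2 h and 18.9 at 24 h, so these differences support no direction. The part of these marker genes in the rise of the members was not tested.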

How the data were processed

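Both deposited tables were used for 6 arrays, 1 per time, grouped by the hour in the sample titles. Per the file headers, the authors' non-normalized table gives a linear probe intensity and a detection p-value, and as held here it covers 32765 of 45281 probes. The authors' deposited normalized table gives intensity that, as judged from its values, is background-subtracted and quantile normalized. The submitters' processing notes name GenomeStudio, and no steps or genome build are given in the sources used here. The number of arrays limits the precision.

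Negative normalized values were set to 0 and 16 was added before log2. Detection limits came from probes in both tables, whose ranks matched (Spearman correlation 1). Symbols came from the platform annotation, updated by Entrez identifier (34807 of 34885 probes matched RefSeq). The brightest probe by mean stood for a gene. Slopes were fitted with limma 3.58.1 in R 4.3.3 (lmFit, eBayes with trend, 4 residual degrees of freedom, 2-sided, adjusted p under 0.05) and tested on simulated data. Folds from 0 h carry no test, and where 1 array lacked detection they are bounds. Members, related lists and likeness rules were chosen with earlier results of these data known. The named genes were all members, the 3 genes most correlated with each member detected on at least 3 arrays, and from each list those past the test plus the 2 with the largest difference at 24 h. Sall1, Sall3, Sall4, Nbl1, Pou5f1 and other genes that did not pass were named after their values were seen. Alternatives covered the offset, the filter, the time scale, the table, the probe choice, the reference array, the fold and leaving out each array.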

Additional observations from a re-analysis of the deposited data

How the results depend on the processing

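All 5 detected members kept a positive fitted change in each of the 13 alternatives that tested them. The number that rose, 4 of 7, was 3 or 4 when each array was left out in turn, and Otx2 was the gene lost. It was 0 without a filter on dim probes, where the adjusted p of Fgf5, Pou3f1, Sall2 and Otx2 was 0.16, 0.16, 0.17 and 0.24, and 0 against untransformed hours, with 0.071, 0.090, 0.077 and 0.14 by limma. Over all genes, 589 rose and 583 fell. Without the filter 0 rose and 0 fell by limma, with 3321 of 19057 genes at an unadjusted p under 0.05, and against untransformed hours 22 rose and 13 fell; the cause was not tested. Leaving out 1 array gave 186 to 562 rises and 228 to 662 falls, and removing the 0, 2, 12 or 24 h array moved both counts by over 1.5 times. With fewer genes tested, 354 rose among the 5920 detected on all 6 arrays and 375 among the 6137 of the non-normalized table, and with every probe fitted 897 rose among 14606. The 3 members that left their 0 h level at 2-fold became 5 at 1.5-fold, with Pou3f1 at 2 h. Those 3 were found, at 8 h, with offsets of 4 and 64, against the 2 h array, without the bound at detection, and against the 4 h array, a reference chosen after the data were seen. No paired analysis was possible because each time has 1 array and the labels carry no replicate numbers. Detection limits of 60.6 and 71.1 at 0 and 2 h leave the levels of Fgf5 at those times unmeasured. Zic5 and Cer1 were unmeasured at every time.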
